A study of Mus musculus with 6 samples.

Results

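The amino acid transporter families comprised every ATF4 ChIP-seq peak whose nearest gene, as named by the authors, belonged to the solute carrier families Slc1a, Slc3a, Slc6a, Slc7a, Slc36a, Slc38a or Slc43a, apart from Slc7a5. The 4 annotated peak lists held 75 such peaks among 17462, and the peaks named 34 of the 62 genes that RefSeq lists for these families without Slc7a5. By common knowledge of their substrates, 42 of the 62 genes carry amino acids or are the heavy chain of such a carrier, and the other 20 carry GABA, monoamines, taurine, betaine or creatine or have an unsure substrate. The label of the families therefore fits only some of the members, and the 20 genes are set apart where the values differ. Of the 75 peaks, 21 had their center within 5 kb of the transcription start site (TSS), at 13 genes, and 54 lay farther away. The last peak inside this limit was at -3646 bp from Slc6a17 (score 30), and the first outside it was at -5329 bp from Slc1a5 (score 23).

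The lists came from primary mouse embryonic fibroblasts (MEFs) of strain 129S6/SvEvTac, either WT or lacking the kinase GCN2 (GCN2 KO), kept for 24 h in medium with leucine (+Leu) or without it (-Leu). Each of the 4 conditions had 1 library made from chromatin pooled over 2 experiments, each of 5 or more replicates. Differences between conditions thus have no replicate check and were not tested, and the lists hold no measurement of Eif2ak4, the gene that encodes GCN2, or of cell type markers.

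GCN2 senses uncharged tRNA when amino acids run short and phosphorylates the translation factor eIF2α, which lets the mRNA of the transcription factor ATF4 be translated. ATF4 pairs with C/EBP family proteins and binds composite sites of the form TGATGNAA, of which TGATGCAA is the best known. Transporter genes are textbook ATF4 targets, since cells short of amino acids raise uptake as well as synthesis. The Slc1a and Slc38a families take up small neutral or acidic amino acids, Slc7a proteins carry cationic and large neutral amino acids or exchange cystine for glutamate, and Slc3a2 is the heavy chain that brings several Slc7a proteins to the cell surface.

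TGATGCAA occurred at 9 places in the 75 windows of 301 bases, at 6 genes, and these sequences are shown because most of the highest-scoring transporter peaks were placed on them. All sequences are from the reference assembly GRCm38 (mm10), with 36 bases to either side (11 at Slc1a4 and Slc6a9, where exons cover the site), read 5′ to 3′ on the strand on which the motif reads TGATGCAA, and the capitals mark the motif. The Slc7a1 site is chr5:148399464-148399543 (minus strand, the first intron), the Slc38a2 site chr15:96699141-96699220 (plus strand, the first intron), the Slc1a4 site chr11:20332699-20332728 (plus strand, across the TSS) and the Slc6a9 site chr4:117835385-117835414 (plus strand, downstream of the TSS in the first exon). The sites beyond 5 kb are chr5:148419227-148419306 (plus strand) upstream of Slc7a1, chr15:96743373-96743452 (minus strand) upstream of Slc38a2, both intergenic, and chr2:102778389-102778468 (plus strand), near an annotated transcript end inside Slc1a2.
Slc7a1: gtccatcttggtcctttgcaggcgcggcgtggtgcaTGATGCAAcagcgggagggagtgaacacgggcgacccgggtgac
Slc38a2: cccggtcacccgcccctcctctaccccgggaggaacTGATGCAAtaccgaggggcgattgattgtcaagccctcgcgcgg
Slc1a4: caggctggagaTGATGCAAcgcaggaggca
Slc6a9: cctcgggaggcTGATGCAActttcccttta
Slc7a1 upstream: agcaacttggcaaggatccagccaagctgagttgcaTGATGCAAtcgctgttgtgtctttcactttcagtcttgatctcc
Slc38a2 upstream: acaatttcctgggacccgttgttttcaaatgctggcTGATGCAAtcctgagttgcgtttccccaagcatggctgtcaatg
Slc1a2: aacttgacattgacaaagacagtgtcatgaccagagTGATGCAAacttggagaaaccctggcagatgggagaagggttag

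The Slc7a11 promoter held TGATGCAA on both strands, facing each other with 11 bases between them. It is shown from chr3:50443652-50443680 on the plus strand, where the capitals mark TGATGCAA and, for the copy on the minus strand, its complement TTGCATCA.
Slc7a11: aTGATGCAAattctccaggtTTGCATCAg

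The WT -Leu peaks at Slc3a2 and Slc38a7 had scores over 100 but no TGATGCAA or TGATGNAA in their windows. Each held TGACGCAA, which differs from TGATGCAA by a single letter and was looked for after these windows had been seen. The Slc3a2 site is chr19:8712982-8713061 and the Slc38a7 site chr8:95852428-95852507, both in introns and printed on the plus strand, and the capitals mark TGACGCAA.
Slc3a2: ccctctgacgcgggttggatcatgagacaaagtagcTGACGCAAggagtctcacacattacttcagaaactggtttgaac
Slc38a7: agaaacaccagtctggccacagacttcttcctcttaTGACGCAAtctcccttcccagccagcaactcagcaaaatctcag

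The lists differed in length, with 4850 peaks for WT +Leu cells and 6374 for WT -Leu, 3566 for GCN2 KO +Leu and 2672 for GCN2 KO -Leu. Each peak carries a score from the authors, a whole number from 13 up whose scale is not given in the sources used here. Over all peaks the median score was 30, 30, 29 and 30, in the same order. The lists give no sequencing depth, the -Leu lists were called against input DNA of leucine-fed cells of the same genotype, and numbers and scores of different lists cannot be separated from a difference in depth. The shares below are given with 95% Wilson intervals, which cover counting error only. Beside a count of 0, the limit given in place of an interval is the share that 3 counts of the total would make.

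Transporter peaks numbered 32 in WT +Leu (0.660% of the list, interval 0.468% to 0.930%), 25 in WT -Leu (0.392%, 0.266% to 0.578%), 14 in GCN2 KO +Leu (0.393%, 0.234% to 0.658%) and 4 in GCN2 KO -Leu (0.150%, 0.0582% to 0.384%). They named 21, 17, 12 and 4 genes. The WT +Leu list thus held the most transporter peaks although the WT -Leu list was longer, but among peaks with a score of 30 or more both WT lists held 17. No gene was named in all 4 lists, 9 were named in both WT lists, and 19 were named in exactly 1 list. Like counts were not made over all genes of the series, so these are no trait of the transporter genes.

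Near the TSS the picture was carried by few genes. A peak within 5 kb was listed for 10 of the 34 genes in WT +Leu, beside 8.76% of the 8863 genes named nearest to any peak of the series. In WT -Leu it was listed for 8 genes, beside 12.5% of all, and in GCN2 KO +Leu for 3, beside 6.51%. In GCN2 KO -Leu it was listed for 0 of the 34, beside 4.66% of all. Each of these genes had 1 such peak, so as a share of the peaks they were 10 of 32 in WT +Leu (31.2%, beside 16.7% of all peaks), 8 of 25 in WT -Leu (32%, beside 18.4%), 3 of 14 in GCN2 KO +Leu (21.4%, beside 16.6%) and 0 of 4 in GCN2 KO -Leu, which allows a share of up to 75%, beside 15.9%. Most of them lay closer still. Within 1 kb of the TSS there were 6, 7 and 3 transporter peaks in the first 3 lists, or 18.8%, 28% and 21.4% of them, beside 5.18%, 6.82% and 5.27% of all peaks. The 12.5% of all genes in WT -Leu stands for 1111 genes, more than the paper counts within 5 kb for that condition. For the other lists the gene counts equal those of the paper.

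**Figure D1:**
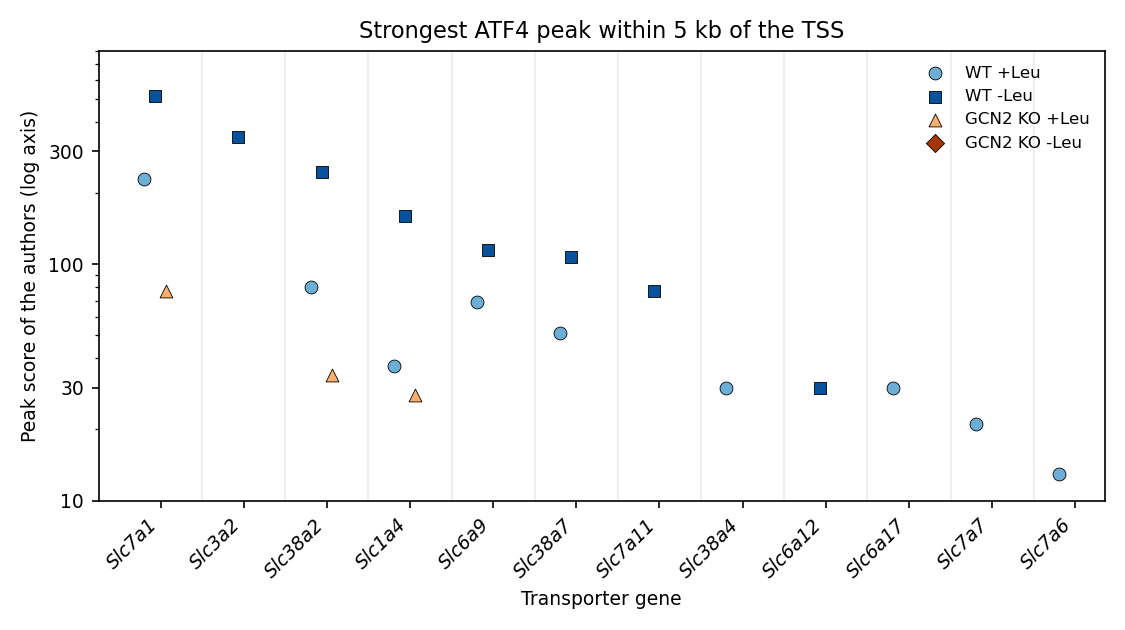
Score of the strongest ATF4 peak within 5 kb of the TSS (log axis) for 12 of the 13 transporter genes that had one, with 1 point for each list and no point where no peak was listed. The 5 genes with a point from both WT lists have the higher score in WT -Leu, and GCN2 KO -Leu has no point.

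The near peaks of WT -Leu had the higher scores. The median score of the near transporter peaks was 33.5 for WT +Leu, 137.5 for WT -Leu and 34 for GCN2 KO +Leu, where all peaks within 5 kb had medians of 29, 30 and 29. The transporter peaks beyond 5 kb had medians of 29, 30, 34 and 36 in the 4 lists, close to the 30, 30, 29 and 30 of all distal peaks. Scores of at least 100 were given to 1 of 32 transporter peaks in WT +Leu (beside 1.86% of all peaks) and to 7 of 25 in WT -Leu (beside 9.82%). The 7 belonged to Slc7a1, with a pair of peaks, and to Slc3a2, Slc38a2, Slc1a4, Slc6a9 and Slc38a7.

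Slc7a1, which encodes the cationic amino acid transporter CAT1, had the strongest transporter peak of both WT lists. Its intronic peak, about 400 bp downstream of the TSS, scored 229 with WT +Leu, 517 with WT -Leu and 77 with GCN2 KO +Leu cells, and it had no counterpart in GCN2 KO -Leu. These scores ranked 29, 87 and 42 in their lists, so the peak stood near the top of each list that held it. The 3 peak centers were at 406, 393 and 371 bp from the TSS, and the same copy of TGATGCAA lay 5, -8 and -30 bp from them. Offsets of a motif from a peak center are counted on the plus strand here and below, whereas distances from the TSS follow the strand of the gene.

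Slc38a2 encodes SNAT2, a sodium-coupled carrier of small neutral amino acids. Its intronic peak scored 80 in WT +Leu (rank 122), 245 in WT -Leu (rank 246) and 34 in GCN2 KO +Leu (rank 950), with no peak in GCN2 KO -Leu. As at Slc7a1, WT -Leu had the highest of the 3 scores and GCN2 KO +Leu the lowest, and 1 copy of TGATGCAA at 518 bp from the TSS was in all 3 windows. The centers lay at 513, 536 and 545 bp.

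Slc1a4 encodes ASCT1, an exchanger of alanine, serine, cysteine and threonine. Its promoter peak scored 37 in WT +Leu (rank 861), 160 in WT -Leu (rank 385) and 28 in GCN2 KO +Leu (rank 1989), and again no peak was listed in GCN2 KO -Leu. The WT centers were 1 bp apart, 21 and 22 bp downstream of the TSS, with TGATGCAA across the TSS itself. The GCN2 KO +Leu center lay at 195 bp, 174 bp from the WT +Leu center, and its window did not reach the motif.

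Slc6a9, the glycine transporter GLYT1, and Slc38a7, a lysosomal carrier of glutamine and asparagine, had near peaks in both WT lists but in no GCN2 KO list. The Slc6a9 peaks scored 69 in WT +Leu and 115 in WT -Leu, with centers 113 bp apart at 201 and 88 bp. TGATGCAA, at 142 bp, lay between these centers, -60 bp from the first and 53 bp from the second. The Slc38a7 peaks were at 521 bp with a score of 51 in WT +Leu and at 1030 bp with 107 in WT -Leu. Their centers were 509 bp apart, so they did not count as 1 site, and TGACGCAA was in the WT -Leu window but not in the WT +Leu window.

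Near peaks at 3 genes were listed in WT -Leu alone. Slc3a2, the heavy chain CD98hc that pairs with Slc7a light chains, had a peak scoring 347 (rank 155) at 871 bp, which is -41 bp from the start of another annotated Slc3a2 transcript in GENCODE. Slc7a11, the light chain xCT of the cystine and glutamate exchanger, had a promoter peak scoring 77 (rank 783) at -16 bp, with the paired motifs 27 and 46 bp from its center. Slc6a12, a betaine and GABA carrier, had a peak scoring 30 (rank 2850) at 776 bp, at the median of its list and without TGATGCAA.

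Near peaks at 5 genes were listed in WT +Leu alone, of which 4 are described, and all had low scores. Slc38a4 (SNAT4, a carrier of neutral amino acids) and Slc6a17 (a carrier of neutral amino acids in synaptic vesicles) each scored 30, at -3444 and -3646 bp. Slc7a7 (the light chain of a cationic amino acid exchanger) scored 21 at -48 bp. Slc7a6, a close relative of Slc7a7, scored 13 at -2145 bp, which is the lowest score listed. None of these 5 windows held TGATGCAA.

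For the 5 genes with near peaks in both WT lists, the score was higher in WT -Leu in 5 of 5, beside 79.6% of the 157 genes of the series with a near peak in both. The ratio of the WT -Leu to the WT +Leu score was 4.32 for Slc1a4, 3.06 for Slc38a2, 2.26 for Slc7a1, 2.1 for Slc38a7 and 1.67 for Slc6a9. Their median, 2.26, was close to the median of 2.13 over the 157 genes, so the higher scores without leucine were shared with the other genes of these lists. By percentile rank within its own list, the position was higher in WT -Leu for 1 of the 5, Slc1a4 (77.4 to 93.9), beside 47.8% of the 157 genes. The other 4 stood at percentiles of 92.6 (Slc38a7) to 99.4 (Slc7a1) in WT +Leu and stood lower in WT -Leu. Their percentiles differed by -0.77 (Slc7a1), -1.33 (Slc38a2), -1.57 (Slc38a7) and -5.19 (Slc6a9) points.

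Few transporter peaks recurred between lists at the same site, taken as centers 300 bp or less apart. Of the 32 WT +Leu peaks, 5 had a WT -Leu partner (beside 6.35% of all WT +Leu peaks), and the same 5 sites were 5 of the 25 WT -Leu peaks (beside 4.85%). They were the near sites of Slc7a1, Slc38a2, Slc1a4 and Slc6a9 and the upstream site of Slc7a1. Of the 14 GCN2 KO +Leu peaks, 3 had a WT -Leu partner (beside 3.03% of all) and 4 a WT +Leu partner (beside 2.64%), namely Slc7a1, Slc38a2 and Slc1a4 near the TSS and, for WT +Leu, an intronic site of Slc38a1. None of the 14 had a GCN2 KO -Leu partner, which allows a share of up to 21.4%, beside 2.75% of all GCN2 KO +Leu peaks.

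Scores at the common sites are set beside those of all common peaks of the series. From WT +Leu to WT -Leu the 5 transporter sites had a median ratio of 3.06, and 308 common peaks overall had one of 2.36. From WT +Leu to GCN2 KO +Leu the ratio was 0.336 at Slc7a1, 0.425 at Slc38a2, 0.757 at Slc1a4 and 1.57 at Slc38a1, with a median of 0.591 beside 0.667 over 93 common peaks. From WT -Leu to GCN2 KO +Leu it was 0.149 at Slc7a1, 0.139 at Slc38a2 and 0.175 at Slc1a4, beside a median of 0.346 over 110 common peaks.

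**Figure D2:**
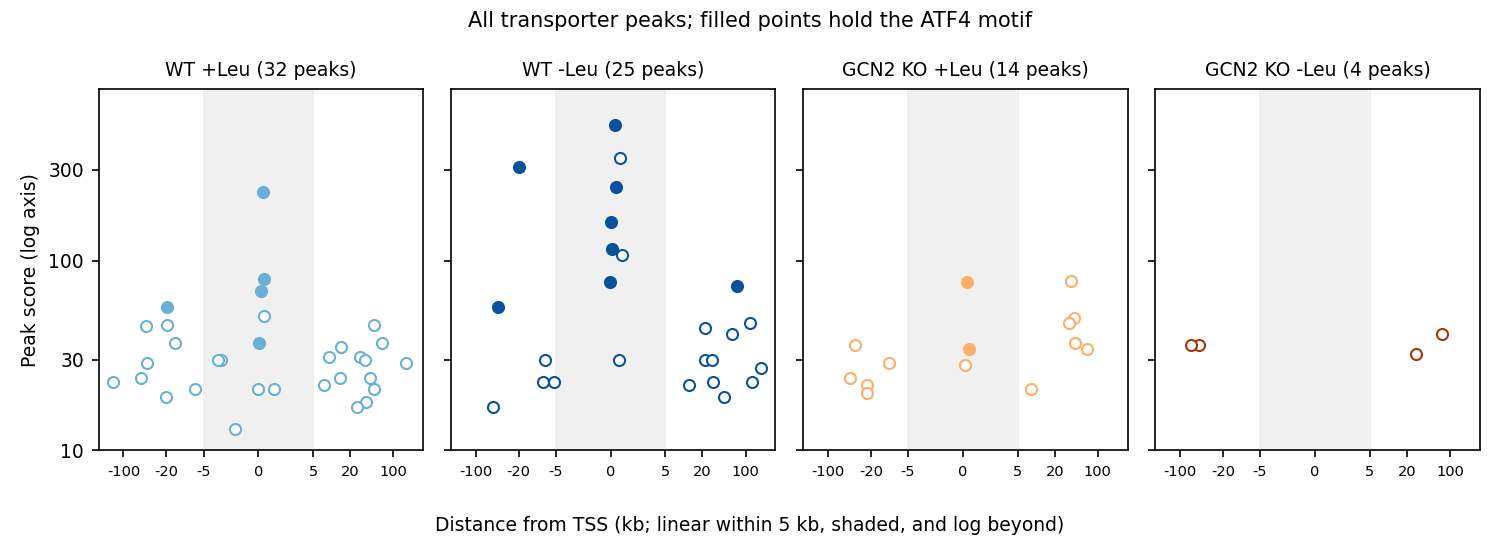
Distance from the TSS (kb, linear within 5 kb and logarithmic beyond, the linear part shaded) and score (log axis) of all 75 transporter peaks, with 1 panel for each list and filled points for windows that hold TGATGCAA. In WT -Leu, 7 peaks score 100 or more, 6 of them within 5 kb, and the other peaks beyond 5 kb lie mostly around 30 in every panel.

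Beyond 5 kb, the strongest transporter peak was the upstream site of Slc7a1. The WT +Leu peak scored 57 at -19325 bp (rank 217) and the WT -Leu peak 309 at -19365 bp (rank 177), a ratio of 5.42, larger than at any of the near sites, and no GCN2 KO list held it. Its TGATGCAA was 37 bp from the first center and -3 bp from the second, counted on the plus strand. Slc7a1 thus had 2 sites with the motif that were common to both WT lists.

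At Slc38a2, both WT lists held a peak about 43 kb upstream, which scored 45 at -42857 bp with leucine and 57 at -43682 bp without it. The centers were 825 bp apart, so these were separate sites, and TGATGCAA was in the WT -Leu window alone. Slc1a2, the main glutamate transporter of astrocytes, had a WT -Leu peak scoring 73 at 71943 bp, near the end of an annotated transcript inside the gene, with TGATGCAA 47 bp from its center. Slc38a1, which encodes SNAT1, a close relative of SNAT2, had an intronic site common to WT +Leu (score 30, 34680 bp) and GCN2 KO +Leu (score 47, 34581 bp), without the motif.

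In the GCN2 KO lists the highest-scoring distal peaks had no motif and no WT partner. In GCN2 KO +Leu this was a peak scoring 78 (rank 41) at 37330 bp from Slc6a12, which lies inside the neighboring gene Iqsec3. It was also the highest score of any transporter peak in that list, 1 above the near peak of Slc7a1. In GCN2 KO -Leu all 4 peaks were distal. Among them, 3 were named for Slc1a3 (score 41), which encodes a glutamate transporter of glia, for Slc1a1 (36), a glutamate transporter of neurons and epithelia, and for Slc1a7 (32), a glutamate transporter of the retina.

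**Figure D3:**
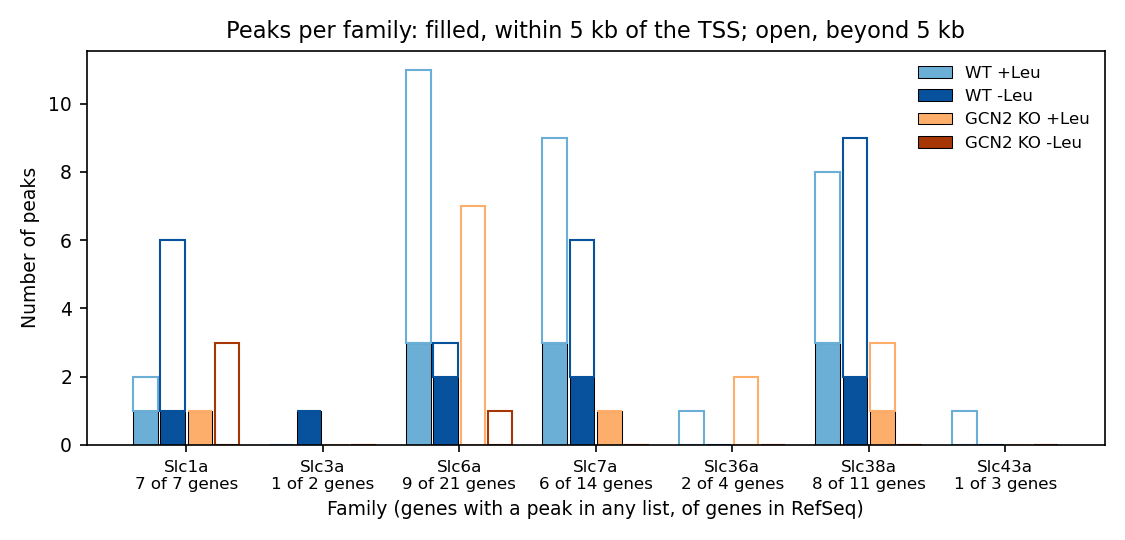
Number of peaks in each transporter family and list, with filled bars for peaks within 5 kb of the TSS and open bars for those beyond, and the number of genes with a peak in any list under each family. Slc6a has the most peaks, 22, of which 5 are near, and GCN2 KO -Leu has open bars alone, in Slc1a and Slc6a.

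The families differed in how much of them was listed. The share of all genes with a listed peak was not counted, so the numbers below do not tell a family from other genes. All 7 Slc1a genes had a peak in some list, with 12 peaks in all, of which 3 were near, at 1 gene (Slc1a4). Slc1a was the only family that had more peaks in the GCN2 KO -Leu list (3) than the WT +Leu list had (2), and both counts are small. Slc38a had 20 peaks at 8 of 11 genes and Slc7a 16 peaks at 6 of 14 genes. Slc6a, the largest family, had 22 peaks at 9 of 21 genes. The WT +Leu list held 11 of them, the WT -Leu list 3 and the GCN2 KO +Leu list 7. Slc36a had 3 peaks at 2 of 4 genes, Slc3a 1 peak at 1 of 2 and Slc43a 1 peak at 1 of 3. The 28 genes with no peak included Slc7a2 and Slc7a3, the other cationic carriers closest to Slc7a1, and Slc3a1, the other heavy chain.

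Slc6a12 was named for 5 peaks with scores of 24 to 78 over 42.4 kb, 4 of which lay in Iqsec3.

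Naming by the nearest TSS did not always place a peak in its gene. Of the 75 peaks, 39 lay inside the gene they were named for, 18 inside another gene only and 18 inside no gene of RefSeq. For 26 peaks the nearest GENCODE start belonged to another gene. Of the peaks inside another gene only, the farthest from its named gene was a WT +Leu peak scoring 29 at 162761 bp from Slc7a1, inside Mtus2.

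TGATGCAA lay wholly within 50 bp of the center, on either strand, in 4 of 32 transporter peaks of WT +Leu (12.5%, interval 4.97% to 28.1%, beside 2.71% of all peaks), in 6 of 25 of WT -Leu (24%, 11.5% to 43.4%, beside 6.95%) and in 2 of 14 of GCN2 KO +Leu (14.3%, 4.01% to 39.9%, beside 1.07%). In GCN2 KO -Leu it was in 0 of 4, which allows a share of up to 75%, beside 1.09% of all peaks. In the whole windows it was in 5, 8 and 2 transporter peaks of the first 3 lists, beside 3.91%, 9.05% and 1.72% of all, and in none of the last. Where a site recurred between lists, the same copy of the motif was found in the windows, except in GCN2 KO +Leu at Slc1a4 and at the Slc38a1 site, where neither window held it.

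**Figure D4:**
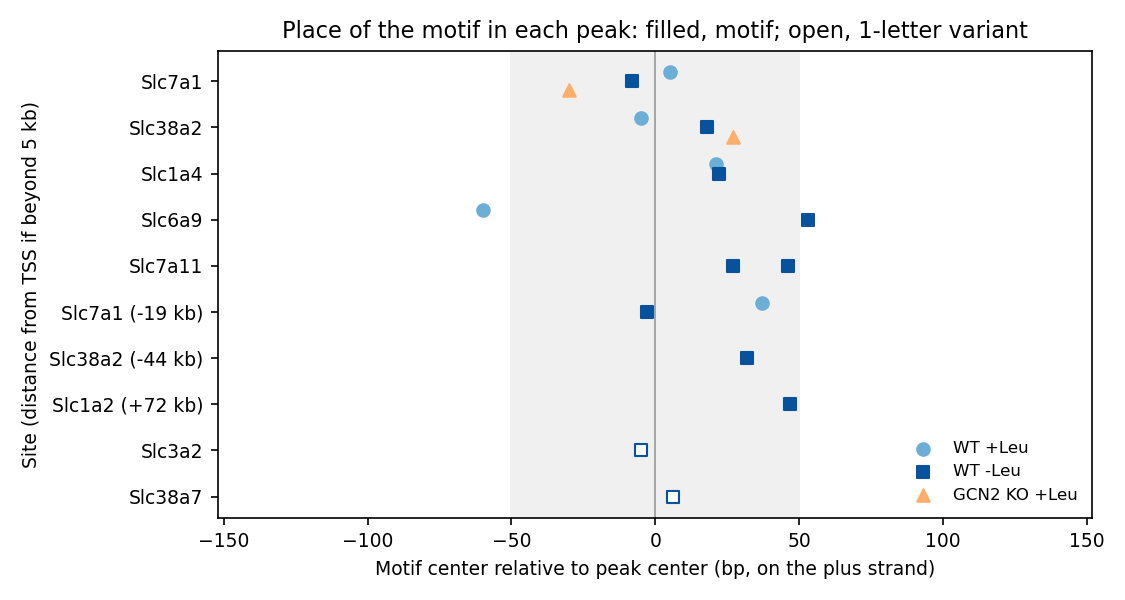
Distance of the motif's center from the peak center (bp, counted on the plus strand, the 50 bp to either side shaded) for each transporter peak that holds TGATGCAA (filled) or TGACGCAA (open), by site and list. At Slc7a1 and Slc38a2 the motif lies within 30 bp of the center in 3 lists, and at Slc6a9 it lies -60 and 53 bp from the WT centers.

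Motif and score went together among the members. Of the 18 transporter peaks with a score of 50 or more, a split chosen after the values were seen, 13 held TGATGCAA in their window, and of the 57 with lower scores 2 held it. The peaks of 50 or more without it were those of Slc3a2 (347), Slc38a7 (107 and 51), Slc6a12 (78) and Slc38a9 (50), a lysosomal amino acid sensor and carrier. Recurrence went with it too. Of the 15 peaks with a partner in another list, 12 held TGATGCAA and the median score was 77. Of the 60 without a partner, 3 held it, the median score was 30 and the range 13 to 347. A site found in several lists counts once for each of them. The same splits were not made over all peaks of the series, so these counts do not set the transporters apart.

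Apart from TGATGNAA, the related motifs were in few transporter windows and in a minority of all peaks. TGATGNAA, with TGATGCAA included, was in 6 of 32, 8 of 25, 3 of 14 and 0 of 4 transporter windows of the 4 lists, beside 7.77%, 15.9%, 4.59% and 4.55% of all. Without TGATGCAA it was in 2 windows, of Slc7a6 in WT +Leu and Slc6a11 in GCN2 KO +Leu. TGACGTCA, the full cAMP response element, was in none of the 75, beside 0.165% to 0.330% of all peaks in the 4 lists. TGANTCA, the AP-1 motif, was in 1 of 32 WT +Leu peaks (Slc6a12) and 3 of 25 WT -Leu peaks (Slc3a2, Slc38a2 upstream and Slc7a8), beside 8.39% and 11.7% of all. TGACGCAA was within 50 bp of the center in the WT -Leu peaks of Slc3a2 and Slc38a7, -5 and 6 bp away, and in 39 of 6362 WT -Leu peaks in all (0.613%). In the RefSeq promoters, taken as 250 bases before to 50 after the TSS, TGATGCAA was in 294 of 32851 (0.895%) and in 4 of 66 promoters of 45 transporter genes, which belonged to Slc1a4, Slc7a11 and Slc7a7. The Slc7a7 peak window did not include its copy.

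The genes that carry amino acids can be set beside the other genes of the families. The 42 amino acid genes had 50 peaks at 23 genes, 11 of them with a near peak, a median score of 36.5 and TGATGCAA within 50 bp in 12 peaks (24%, interval 14.3% to 37.4%). The 20 others had 25 peaks at 11 genes, of which 2 had near peaks, a median score of 29 and no TGATGCAA in any window, where 0 of 25 allows a share of up to 12%. Because single sites count once for each list, these peaks are not independent, and the interval and the limit understate the uncertainty. The split by substrate was made after the peak tables had been seen. In WT -Leu, 20 of the 25 transporter peaks belonged to the amino acid genes, and in WT +Leu 20 of the 32.

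Of 20 further amino acid and peptide carriers outside these families, mostly of lysosomes and mitochondria, none had a peak with TGATGCAA within 50 bp of its center, and 1 distal peak, of Slc15a1 in GCN2 KO -Leu, held 2 copies farther out in its window. They were named for 7 and 3 peaks in the WT lists with and without leucine, and for 3 and 2 in the corresponding GCN2 KO lists. Only Slc25a22, a mitochondrial glutamate carrier, in WT -Leu (score 48, -1402 bp) and Slc15a1, a peptide transporter, in GCN2 KO +Leu (score 20, -1297 bp) had a peak within 5 kb.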

How the data were processed

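ATF4 ChIP-seq was done on WT and GCN2 KO MEFs with or without leucine, 1 library per condition. According to the study's methods, the authors used fastx for trimming, BWA 0.7.12 for alignment to mm10 and MACS2 2.1.0 for peaks over input DNA (false discovery rate 0.05), and annotated the summits with 150 bp to either side with HOMER 4.7. The authors deposited for each peak a score, not normalized between libraries, the distance to the TSS in bp, and the fraction of G and C bases and of CpG. Library depth is not in these lists and the 2 input libraries were not analysed here. The precision of single scores is therefore unknown.

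Members were chosen by gene name. Sequences were read from GRCm38, whose GC content equalled the deposited one for every peak on assembled chromosomes, and promoters from RefSeq. Motifs were searched on both strands, and gene starts came from the lists or, where said, from GENCODE M21. Overlap counting and the motif search were first tested on simulated peaks and sequences. Python 3.11.15, pandas 2.3.3, numpy 2.4.6, scipy 1.17.1, pysam 0.24.0 and matplotlib 3.10.9 were used.

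The genes named with values are those with a peak within 5 kb in any list and, beyond 5 kb, those with a site common to 2 or more lists, a score of 100 or more or the highest distal score of a list. Slc1a2, Slc38a9, the upstream Slc38a2 peaks, the peak in Mtus2, the other GCN2 KO -Leu peaks and the set of Slc6a12 peaks were chosen after their values were seen. The members, lists and alternatives were chosen with earlier results of these data known, and the split of genes by substrate was made after the peak tables had been seen. Alternatives were a score of 30 or more, the strongest 2672 peaks per list, the amino acid genes alone, assembled chromosomes alone, limits of 1 and 10 kb, common centers within 100 or 1000 bp, percentile ranks, each gene's nearest peak in place of its strongest, whole windows of 150 bp to either side, and TGATGNAA. GENCODE starts, TGACGCAA and the comparison of common peaks alone were added after seeing the data. Values of 1 member gene are not reported here, although the gene is kept in all counts.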

Additional observations from a re-analysis of the deposited data

Results flagged for a closer look

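At 3 genes the WT lists and the GCN2 KO lists held different combinations of peaks. The strongest peak within 5 kb had a WT -Leu to WT +Leu score ratio of 4.32 at Slc1a4, 3.06 at Slc38a2 and 2.26 at Slc7a1, whereas in GCN2 KO each gene had a peak with leucine and none listed without it. With 1 library per condition, the difference was not tested, and the lists give no value at a site where no peak was called. Each pattern taken alone is common in the series, but their combination was not counted over all genes. The median WT ratio over 157 genes was 2.13, and 2.75% of all GCN2 KO +Leu peaks had a GCN2 KO -Leu partner, so most of that list had none. That share covers peaks of any score and distance, and was not counted for strong peaks near a TSS.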

How the results depend on the processing

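Of 103 values recomputed for 20 results, 94 stayed within 1.5 times the main count and 9 moved, each downward. Of the WT +Leu transporter peaks at any distance, 32 in all, 17 had a score of 30 or more, 19 were among the strongest 2672 peaks and 20 belonged to amino acid genes. Of those within 5 kb in WT +Leu, 10 peaks at 10 genes, 6 peaks at 6 genes lay within 1 kb. Of the 25 WT -Leu peaks 13 were among the strongest 2672, and of the 14 GCN2 KO +Leu peaks 8 had a score of 30 or more and 7 belonged to amino acid genes. The number of genes with a higher position in WT -Leu was 5 by score and 1 by percentile rank. All but the last are counts over a smaller set of peaks. The last depends on the scale, since by rank within each list most of these genes did not stand higher in WT -Leu. No paired analysis was possible because each condition had 1 library. Depth, which the lists do not give, limits comparisons of numbers and scores between lists, and weak peaks, most of which had no partner in another list, are the least certain.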
